A study of Homo sapiens with 24 samples.

Results

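Cytosolic ribosomal protein genes encode the protein shell of the ribosome that makes proteins outside mitochondria. Here they were taken as the rows whose symbol begins with RPL or RPS and a digit, together with RPSA, RPLP0, RPLP1 and RPLP2. Symbols beginning with RPS6K, symbols with a hyphen and pseudogene symbols were left out. This gave 86 of the 23354 genes in the table. For description, 76 were called core genes (30 of the small and 46 of the large subunit). The other 10 were called paralogs, copies that resemble a core gene, namely RPL3L, RPL7L1, RPL10L, RPL22L1, RPL26L1, RPL36AL, RPL39L, RPS4Y1, RPS4Y2 and RPS27L. FAU, whose ribosomal protein is made as a fusion with a ubiquitin-type protein, falls outside the naming rule.

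Sequencing covered RNA of 2 established lines of acute myeloid leukemia (AML), MV4-11 and KG-1a. Cells were left without treatment or received 1 μM 8-chloro-adenosine (8CA) or 1 μM 8-amino-adenosine (8AA), and RNA was taken at 8 h and at 24 h. There were 12 such groups with 2 libraries, A and B, in each. Both drugs are adenosine analogs that cells convert to triphosphates and build into RNA, and they differ at the adenine base, where 8CA has chlorine and 8AA an amino group. In each line and at each time both drugs were compared with the same untreated libraries, so their changes are not independent of each other. Nothing in the labels says that A and B were separate cultures, so the p-values measure the spread between these libraries, which may be technical.

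A ribosome needs its proteins in matched amounts, and surplus ribosomal protein that is not built into a particle is quickly degraded. The mRNAs of these proteins are abundant and long-lived, and most begin with a C followed by a run of pyrimidines, the 5′ terminal oligopyrimidine (TOP) motif, through which mTOR signaling controls their translation. Free RPL5 and RPL11 bind the ubiquitin ligase MDM2, and loss of 1 copy of several ribosomal protein genes causes Diamond-Blackfan anemia, a failure of red cell production.

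Library totals ran from 18633963 to 24520078 counts (median 22104498 for MV4-11 and 20616192 for KG-1a). Markers matched the labelled cells in part. PTPRC, the pan-leukocyte antigen CD45, lay at 80.9 to 152 CPM (counts per 1000000 counts) in MV4-11 and 688 to 788 in KG-1a, FLT3 at 426 to 621 in MV4-11 and CD34 at 325 to 629 in KG-1a. CD34 did not exceed 0.175 CPM in MV4-11, FLT3 did not exceed 1.32 CPM in KG-1a, and the T cell gene CD3E was at 22.2 to 78.3 CPM in KG-1a and at 0 counts in MV4-11. Of the other myeloid markers, CD33 and MPO reached at most 1.02 and 2.16 CPM in KG-1a and MEIS1 was at 0 counts there, while in MV4-11 they lay at 105 to 141, 8.01 to 13.0 and 85.2 to 104 CPM. SPI1 lay at 219 to 280 CPM in MV4-11 and 5.86 to 7.81 in KG-1a. HOXA9 went the other way, at 7.11 to 9.4 CPM in MV4-11 and 22.3 to 27.8 in KG-1a. KIT was low in both lines, at 2.55 to 6.58 CPM in MV4-11 and 3.39 to 7.21 in KG-1a. Among epithelial markers EPCAM was at 0 counts in all 24 libraries, and KRT8 lay at 3.61 to 8.33 CPM in MV4-11 and at most 0.523 in KG-1a. The 2 libraries of KG-1a with 8AA for 24 h stood apart from each other for the ribosomal protein genes. For comparisons that rest on them, the counts of all members called are given without either. Counts of Diamond-Blackfan genes, start-sequence groups and other gene lists there are given with both libraries only, as are counts over several comparisons.

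Of the 86 genes, 83 passed the filter on low counts in MV4-11, 84 in KG-1a and 84 in the fit over both lines, and all 76 core genes passed in each. RPL10L and RPL3L had at most 1 count in any library. RPS4Y2 had at most 2 counts in MV4-11 and 4 to 21 in KG-1a, and passed in KG-1a and in the joint fit. Core genes were well covered with 3 exceptions. RPS10 had 18 to 47 counts, RPL17 43 to 124 and RPL36A 210 to 379. Each of these lies on the same strand inside a read-through row, RPS10-NUDT3, RPL17-C18orf32 and RPL36A-HNRNPH2, with 8672, 4085 and 5265 shared bases, and all 3 read-through rows held 0 counts in every library. Changes of these 3 genes therefore rest on few reads, and how many of their reads went uncounted was not tested. In addition, 76 of the 86 genes have at least 1 pseudogene bearing their name in GENCODE 29, 1136 in all, with 91 for RPL23A alone. The 25 pseudogene rows in the table took 0.0073% to 0.0108% of counts.

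To show what the core genes and the paralogs share at their starts, the RefSeq sequence around the first transcribed base (GRCh38.p14) was read for the 70 members with an entry. A C at the first base and a run of at least 5 C or T bases from there was found at an annotated start of 46 of 62 core genes (74.2%) and of 2 of 8 paralogs (25%). The same was found in 766 of 10427 genes tested in the joint fit (7.35%) and in 4.07% of all 35116 entries. The sequences below run from 40 bases before to 20 bases from the start, with the pyrimidine run from the first transcribed base in capitals. They show a small subunit gene (RPS6), the gene with the most different level between the lines among small subunit core genes (RPS14), the core gene called higher in all 4 comparisons at 24 h (RPL13A), and core genes beside a paralog.
RPS6: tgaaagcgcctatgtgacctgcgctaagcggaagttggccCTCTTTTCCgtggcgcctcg
RPS14: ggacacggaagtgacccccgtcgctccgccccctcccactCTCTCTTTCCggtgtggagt
RPL13A: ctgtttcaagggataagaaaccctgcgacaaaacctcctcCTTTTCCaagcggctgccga
RPL22: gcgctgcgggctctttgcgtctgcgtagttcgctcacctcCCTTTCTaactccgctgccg
RPL22L1: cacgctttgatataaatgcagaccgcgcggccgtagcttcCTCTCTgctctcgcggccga
RPL26: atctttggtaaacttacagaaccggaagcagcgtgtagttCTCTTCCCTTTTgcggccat
RPL26L1: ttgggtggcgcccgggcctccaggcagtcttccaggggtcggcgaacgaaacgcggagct
RPS27: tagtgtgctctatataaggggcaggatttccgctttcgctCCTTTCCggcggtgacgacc
RPS27L: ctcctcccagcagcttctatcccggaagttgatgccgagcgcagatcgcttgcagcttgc
RPL36AL: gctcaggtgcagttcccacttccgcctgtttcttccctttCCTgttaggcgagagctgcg
RPL7L1: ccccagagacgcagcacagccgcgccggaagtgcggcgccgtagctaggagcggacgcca

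These stretches lie at chr9:19380217-19380276 (RPS6, minus strand), chr5:150449720-150449779 (RPS14, minus), chr19:49487568-49487627 (RPL13A, plus), chr1:6199576-6199635 (RPL22, minus) and chr3:170870176-170870235 (RPL22L1, minus). The others lie at chr17:8383174-8383233 (RPL26, minus), chr5:172958689-172958748 (RPL26L1, plus, the first of 2 annotated starts), chr1:153990722-153990781 (RPS27, plus), chr15:63157458-63157517 (RPS27L, minus), chr14:49620607-49620666 (RPL36AL, minus) and chr6:42879576-42879635 (RPL7L1, plus). RPL22L1 began with a run of 6 pyrimidines like its core partner, RPL36AL with a run of 3, and RPL26L1, RPS27L and RPL7L1 had none at the printed start. In the whole window of 250 bases before to 50 after the start, read on both strands, CGGAAG, the core of sites for ETS factors, was present in 64.3% of the 70 members, 37.8% of the genes tested and 19.5% of all entries. GGGCGG, the GC box, was present in 57.1%, 74.9% and 45.0%, TATAAA in 10.0%, 8.61% and 11.5%, and GCCATNTT, a YY1-type sequence, in 15.7%, 12.4% and 6.58%. Members also often hold small nucleolar RNA genes: 28 of the 86 (32.6%) enclose at least 1 on the same strand in GENCODE 29, against 198 of 12624 protein-coding genes tested (1.57%).

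The share of all counts that fell on the 86 genes was higher in MV4-11 than in KG-1a in every library. In untreated MV4-11 it was 7.397% and 7.743% at 8 h and 7.373% and 7.512% at 24 h. With 8CA it was 7.774% and 8.260% at 8 h and 7.898% and 8.150% at 24 h, and with 8AA 8.073% and 8.646% at 8 h and 7.842% and 8.286% at 24 h. All 8 treated MV4-11 libraries lay above all 4 untreated ones, and replicate B lay above replicate A in each of the 6 groups. The ratio of the treated to the untreated mean was 1.06 ± 0.057 (SD, n = 2 per group) for 8CA and 1.10 ± 0.064 for 8AA at 8 h, and 1.08 ± 0.028 and 1.08 ± 0.045 at 24 h.

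In untreated KG-1a the share was 4.901% and 4.817% at 8 h and 5.043% and 5.063% at 24 h. After 8 h it was 4.762% and 4.727% with 8CA and 5.280% and 5.081% with 8AA. After 24 h it was 5.727% and 5.624% with 8CA, above both untreated libraries by a ratio of 1.12 ± 0.015 (SD, n = 2 per group), and 5.620% (A) and 4.908% (B) with 8AA, on either side of the untreated values. An exact permutation test of 2 libraries against 2 cannot go below p = 0.333, so no test of these shares was made. These are shares of sequenced RNA, and less RNA per cell or fewer cells cannot be told apart from them.

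**Figure D1:**
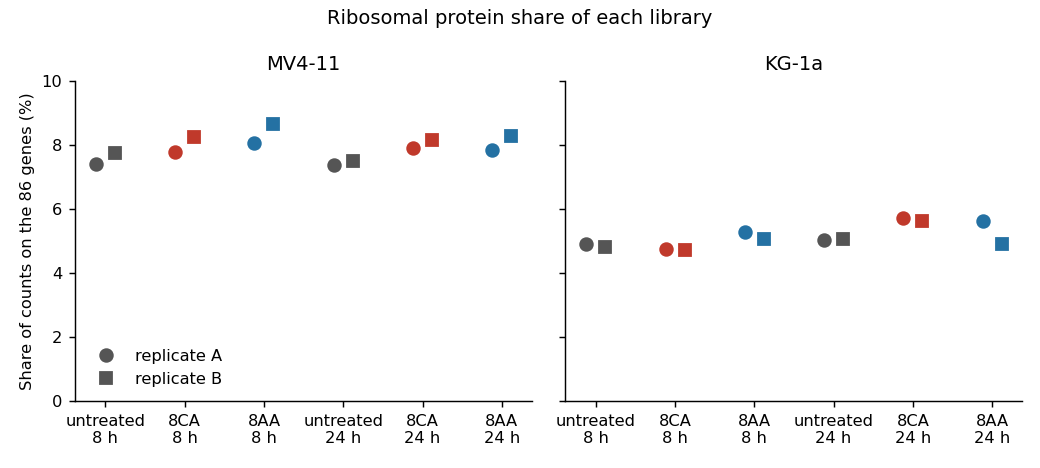
Share of all counts on the 86 ribosomal protein genes (y axis, percent, from 0) in each of the 24 libraries, by treatment and time (x axis), with MV4-11 left and KG-1a right and circles for replicate A and squares for B. MV4-11 libraries sit between 7.373% and 8.646% and KG-1a libraries between 4.727% and 5.727%, and the replicates of KG-1a with 8AA for 24 h are the farthest apart, at 5.620% and 4.908%.

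Against untreated cells, the median change of the core genes lay between -0.045 and 0.118 on the log2 scale in all 8 comparisons. With all libraries, most paralogs were called lower at 24 h in 3 of the 4 comparisons, MV4-11 with 8AA being the exception. A gene was called when its p from the edgeR quasi-likelihood test, adjusted after Benjamini and Hochberg over all genes of the fit, was below 0.05. After 8 h of 8CA in MV4-11, 1 of 83 members was called lower (RPL22L1) and 0 higher, against 5.77% and 4.58% of all genes tested. At an unadjusted p below 0.05 there were 3 members, and DESeq2 called 1 lower and 0 higher. After 8 h of 8AA in MV4-11, 2 were called lower and 5 higher, against 15.6% and 13.6%. After 24 h in MV4-11, 7 were called lower and 5 higher with 8CA, against 22.7% and 21.2%, and 3 lower and 3 higher with 8AA, against 15.3% and 13.9%. These shares of members, at most 8.43%, lay below the share of all genes called in the same direction. The number called higher in MV4-11 depended on the processing, however. With library size as the only scaling, 2 members were lower and 47 higher after 8AA for 8 h, 5 and 32 after 8CA for 24 h, and 2 and 27 after 8AA for 24 h, and with the upper quartile the splits were 2 and 45, 5 and 18, and 2 and 12. Without the filter on low counts 37, 22 and 12 were called higher. With a replicate block, which treats libraries of the same letter as paired, 50, 25 and 21 were called higher in the same comparisons. After 8CA for 8 h the block gave 4 higher. No label states such a pairing. Leaving out 8AA replicate A gave 23 higher at 8 h, while leaving out 8AA replicate B or untreated replicate A gave 0. At 24 h the members called higher were 1, 2, 3 and 0 with 8CA or 0, 0, 2 and 0 with 8AA when untreated A, untreated B, treated A and treated B were left out in turn. Lower calls at 24 h were 5, 5, 4 and 4 (8CA) or 3, 0, 1 and 2 (8AA), taken in the same order. The number of core genes that rose in MV4-11 was thus not settled by these counts.

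In KG-1a, 8CA for 8 h called 0 of 84 members in either direction, against 0.181% lower and 0.7% higher among all genes, with 2 members at an unadjusted p below 0.05 and 0 in DESeq2. After 8 h of 8AA, 2 were called lower and 4 higher, against 18.0% and 16.7%, with 16 higher under library size alone and 0 higher without 8AA replicate A or 1 without either untreated library. After 24 h of 8CA, 8 were called lower and 30 higher, that is 9.52% and 35.7% of the members against 24.0% and 23.4% of all genes. With library size alone the split was 7 and 43, and with the upper quartile 7 and 44. After 24 h of 8AA, 18 were called lower and 3 higher (21.4% and 3.57%), against 26.6% and 25.4%. The split in this last comparison depended on the scaling: with library size alone it was 8 lower and 17 higher, and with the upper quartile 8 and 10, with a median change of 0.05 and 0.03. The median change of the members was between 0.04 and 0.10 on the log2 scale in the 4 comparisons of MV4-11 and was -0.04, 0.05, 0.11 and -0.04 in those of KG-1a (8CA 8 h, 8AA 8 h, 8CA 24 h, 8AA 24 h). Over all genes the median was between -0.00468 and 0.0134.

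**Figure D2:**
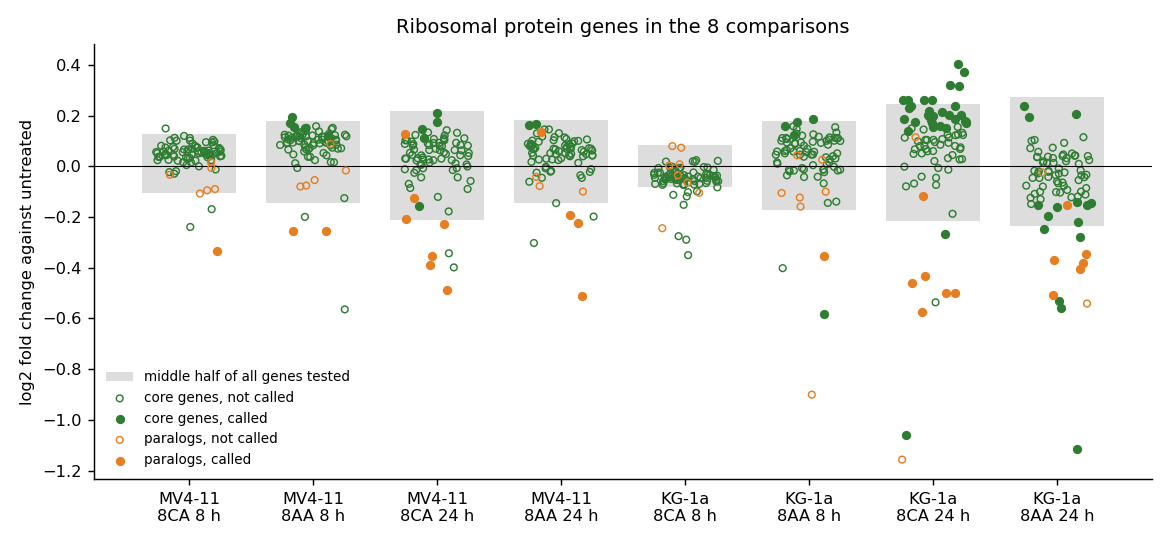
Log2 fold change against untreated (y axis) of each core gene (green) and paralog (orange) in the 8 comparisons (x axis); filled points passed an adjusted p of 0.05 and grey boxes span the interquartile range of all genes tested. Within 0.2 of 0 lie 73 to 75 of the 76 core genes in the 4 comparisons of MV4-11 and in KG-1a at 8 h, 56 in KG-1a with 8CA for 24 h and 68 with 8AA, and the paralogs called at 24 h lie mostly below 0.

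Among core genes in MV4-11, changes stayed small. With 8CA for 24 h, 73 of 76 lay within 0.2 of 0 on the log2 scale, while 47.3% of all genes did, and with 8AA 75 of 76 did, against 58.8%. RPL13A, a large subunit protein that also takes part in an interferon-controlled block on translation, was at 2339 and 2410 CPM in untreated MV4-11 at 24 h, at 2689 and 2812 with 8CA and at 2531 and 2791 with 8AA. All 4 treated libraries lay above both untreated ones. The log2 change was 0.21 ± 0.057 (SE, adjusted p = 0.0074) with 8CA and 0.16 ± 0.057 (adjusted p = 0.0418) with 8AA, a rise of 15.8% and 12.1%, and the calls were lost in 1 and 3 of 11 alternatives. RPL12 (0.17, adjusted p = 0.0201), RPS18 (0.15, adjusted p = 0.0351) and RPL22 (0.11, adjusted p = 0.0363) rose with 8CA, and RPL28 with 8AA (0.17, adjusted p = 0.0399), and each of these 4 calls was lost in 3 or 4 of 11 alternatives. RPL35 was the core gene that fell, with 8CA, a call lost in 6 of 11 alternatives: it was at 500.9 and 519.2 CPM untreated and at 449.3 and 467.1 with 8CA, which did not overlap (log2 change -0.15 ± 0.058, adjusted p = 0.0414). With 8AA it was at 469.9 and 518.7 CPM, between and below the untreated values (log2 change -0.05, adjusted p = 0.596). Replicate A was the lower of each pair for all but 1 to 8 of the 76 core genes in all 6 groups of MV4-11, with a median difference between A and B of -0.04 to -0.12 on the log2 scale. That is the size of the median changes above.

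In KG-1a with 8CA for 24 h, 30 of 76 core genes rose and 2 fell, with a core median of 0.12. The members called higher were 13 without untreated replicate A, 14 without untreated B or 8CA A, and 21 without 8CA B. Those that rose came from both subunits, 12 of 30 in the small and 18 of 46 in the large. RPL13A was at 1010 and 1032 CPM untreated and at 1364 and 1340 with 8CA (log2 change 0.40 ± 0.060, adjusted p = 5.61e-05), a rise of 32.4%. RPL28, a large subunit protein, was at 551.1 and 584.2 CPM untreated and at 753.1 and 716.9 with 8CA (0.37 ± 0.065, adjusted p = 0.00023). RPL4 was at 1424 and 1407 CPM untreated and at 1794 and 1737 with 8CA (0.32 ± 0.057, adjusted p = 0.000295). For these 3 genes the 8CA libraries lay above the untreated ones with no overlap. RPL12 (0.26), RPS27 (0.26), RPS6 (0.24), RPS18 (0.22), RPL5 (0.19), RPLP0 (0.19), RPL29 (0.17) and RPL22 (0.15) also rose, with adjusted p from 0.000392 for RPL12 to 0.021 for RPLP0. The calls of RPLP0 and RPL5 were lost when any of the 4 libraries was left out. RPL35 fell, from 458.8 and 440.5 CPM to 372.5 and 374.9 (log2 change -0.27 ± 0.063, adjusted p = 0.00274). RPS10 fell as well (-1.06 ± 0.26, adjusted p = 0.00351), on 0.8399 and 1.142 CPM with 8CA against 2.319 and 1.795 untreated.

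In KG-1a with 8AA for 24 h, 12 core genes were called lower and 3 higher, and the libraries did not agree on the direction. Replicate A was higher than B for all 76 core genes, by a median of 0.23 on the log2 scale, where A and B of the other 11 groups differed by a median of at most 0.12 in either direction. The core median against the untreated mean was 0.06 in A and -0.15 in B. Without A, 59 members were called lower and 1 higher, and without B, 10 lower and 27 higher. Without untreated replicate A the counts were 11 and 0, and without untreated B 10 and 2. The direction for core genes as a group was thus not settled by these 2 libraries. RPLP0 is an example: it was at 2140 and 2238 CPM untreated and at 2350 (A) and 1973 (B) with 8AA, which lie on either side. A few genes lay outside the untreated range in both 8AA libraries. RPL28 was at 726.8 and 611.3 CPM against 551.1 and 584.2 untreated (0.24 ± 0.065, adjusted p = 0.00612), RPS27 at 487.7 and 421.9 against 392.7 and 396.5 (0.21 ± 0.060, adjusted p = 0.00897), and RPL13A at 1269 and 1066 against 1010 and 1032 (0.19 ± 0.060, adjusted p = 0.0136). In these 3 genes both 8AA libraries lay above both untreated ones, and the calls were lost in 1, 2 and 3 of 11 alternatives. RPL35 was at 404.1 and 337.3 CPM, below both untreated libraries (-0.28 ± 0.063, adjusted p = 0.00174), RPL36A at 11.31 and 10.93 against 16.54 and 15.66 (-0.53 ± 0.089, adjusted p = 0.000116), after a fall at 8 h from 18.0 and 16.25 to 11.19 and 11.64 (-0.58 ± 0.087, adjusted p = 0.000105), and RPS10 at 0.9602 and 0.9357 (-1.12 ± 0.26, adjusted p = 0.00197). The call for RPL17 (-0.56, adjusted p = 0.0488) was lost in 6 of 11 alternatives.

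Of the genes with special roles, the stalk proteins, RPSA, RPL5 and RPL11 were seldom called. The acidic stalk proteins RPLP0, RPLP1 and RPLP2, which recruit the translation GTPases, and RPSA, which also serves as a laminin receptor, were called once against untreated cells, for RPLP0 in KG-1a with 8CA for 24 h. RPL5 was called in that comparison only (0.19 ± 0.061, adjusted p = 0.0183), and RPL11 in MV4-11 with 8AA for 8 h only (0.15 ± 0.052, adjusted p = 0.0379). The 16 genes mutated in Diamond-Blackfan anemia had a median change of 0.03 (8CA) and 0.04 (8AA) in MV4-11 at 24 h, where RPL35 alone was called, with 8CA (against 22.7% of all genes lower). In KG-1a with 8CA the median was 0.09, with 2 called lower and 5 higher, against 24.0% and 23.4% of all genes. With 8AA it was -0.03, with 4 lower and 1 higher, against 26.6% and 25.4%. The 4 lower with 8AA lay near the share of all genes. RPS19, the gene most often mutated in that disease, was at 649.3 and 688.8 CPM in untreated MV4-11 at 24 h, at 659.8 and 756.8 with 8CA and at 712.5 and 768.1 with 8AA. It was called in none of the 8 comparisons, nor was RPS14, whose loss underlies the anemia of the 5q- syndrome, nor RPS26. In all, 31 of the 83 genes tested in both lines (37.3%) were called in none of the 8 comparisons, against 15.7% of all genes tested in both.

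With all libraries, most of the paralogs were called lower at 24 h, except in MV4-11 with 8AA. With 8CA, 6 of 7 tested fell in MV4-11 (median change -0.23), against 22.7% of all genes, and 6 of 8 in KG-1a (-0.48), against 24.0%. With 8AA, 3 of 7 (-0.10) fell in MV4-11, against 15.3%, and 6 of 8 (-0.37) in KG-1a, against 26.6%. In each of these 4 comparisons fewer paralogs were called lower when certain single libraries were left out, so these counts were not settled. Relative to the untreated mean, the paralog median in MV4-11 was -0.255 (A) and -0.216 (B) under 8CA. Under 8AA it was -0.16 (A) and -0.061 (B). For KG-1a the 8CA libraries gave -0.42 (A) and -0.418 (B), the 8AA libraries -0.289 (A) and -0.399 (B). At 8 h 1 of 7 (8CA) and 2 of 7 (8AA) fell in MV4-11, and 0 of 8 and 1 of 8 in KG-1a, against 5.77%, 15.6%, 0.181% and 18.0% of all genes. RPL26L1 and RPL39L passed as lower in each of the 4 comparisons at 24 h and RPL13A as higher, among 83 genes tested in both lines. Of all 11485 genes with a test in each line, 7.64% fell in all 4 and 4.01% rose.

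RPL22L1, the paralog of RPL22 that can replace it in the large subunit, was at 91.12 and 97.18 CPM in untreated MV4-11 at 24 h, at 68.93 and 65.45 with 8CA and at 84.21 and 91.65 with 8AA. The 8CA libraries lay below the rest, and the higher 8AA value lay just above the lower untreated one. It fell by 0.49 on the log2 scale with 8CA (SE 0.063, adjusted p = 1.99e-05), while the 8AA change was -0.10 (adjusted p = 0.252). In MV4-11 it had fallen at 8 h with both drugs, from 88.23 and 96.48 CPM to 71.51 and 75.13 with 8CA (-0.33 ± 0.064, adjusted p = 0.00405) and to 74.19 and 80.38 with 8AA (-0.26 ± 0.063, adjusted p = 0.00618). In KG-1a it was at 18.75 and 19.09 CPM untreated at 24 h, at 14.42 and 13.06 with 8CA and at 14.44 and 14.63 with 8AA, with no overlap (-0.46 ± 0.081, adjusted p = 0.000245, and -0.38 ± 0.079, adjusted p = 0.000848). RPL22 itself rose in 4 of the 8 comparisons, by 0.11 to 0.16, and each of these calls was lost in 2 to 6 of 11 alternatives.

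RPL26L1, the paralog of RPL26, was at 24.08 and 24.66 CPM in untreated MV4-11 at 24 h, at 19.86 and 21.80 with 8CA and at 20.77 and 21.02 with 8AA. In KG-1a it was at 55.81 and 54.55 CPM untreated, at 37.75 and 40.32 with 8CA and at 44.21 and 38.91 with 8AA. Treated and untreated libraries did not overlap in either line. The log2 change was -0.23 ± 0.071 (adjusted p = 0.0167) and -0.22 ± 0.072 (adjusted p = 0.0288) in MV4-11, and -0.50 ± 0.066 (adjusted p = 1.74e-05) and -0.41 ± 0.065 (adjusted p = 8.23e-05) in KG-1a, so that it decreased by 29.3% with 8CA in the latter line. The MV4-11 calls were lost in 4 and 8 of 11 alternatives and the KG-1a calls in none. RPL39L, the paralog of RPL39 best known from the testis, fell at 24 h by 0.35 (8CA) and 0.51 (8AA) in MV4-11 and by 0.50 and 0.37 in KG-1a, with adjusted p from 0.00419 to 0.021. These calls were lost in 3, 1, 2 and 5 of 11 alternatives. Its level was low, 6.675 to 12.84 CPM at 24 h.

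RPS27L, the paralog of RPS27, was at 109.0 and 114.2 CPM in untreated MV4-11 at 24 h, at 81.09 and 89.55 with 8CA and at 95.74 and 99.55 with 8AA. The libraries fell in 3 steps without overlap, untreated above 8AA above 8CA, with a log2 change of -0.39 ± 0.052 (adjusted p = 2.47e-05) for 8CA and -0.19 ± 0.052 (adjusted p = 0.0105) for 8AA. In KG-1a it was at 22.43 and 23.88 CPM untreated, at 16.70 and 17.58 with 8CA and at 24.17 and 21.23 with 8AA. There it fell with 8CA (-0.43 ± 0.085, adjusted p = 0.000602), and the 8AA libraries lay on either side of the untreated ones (-0.02, adjusted p = 0.824). RPS27 rose or did not pass in the same comparisons.

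RPL36AL, the autosomal copy of RPL36A, was at 119.6 and 115.7 CPM in untreated KG-1a at 24 h, at 78.63 and 79.41 with 8CA and at 98.11 and 86.68 with 8AA. The order was untreated, 8AA and 8CA with no overlap (-0.57 ± 0.060, adjusted p = 1.66e-06, and -0.35 ± 0.059, adjusted p = 0.000142). In MV4-11 it fell with 8CA (-0.21 ± 0.051, adjusted p = 0.00359) and was at -0.04 with 8AA (adjusted p = 0.576). RPL7L1, the paralog of RPL7, was lowest with 8AA in KG-1a: 173.9 and 177.5 CPM untreated at 24 h, 161.4 and 162.6 with 8CA and 123.2 and 123.9 with 8AA (8AA change -0.51 ± 0.042, adjusted p = 1.1e-07). It had fallen with 8AA at 8 h in both lines, by 0.35 in KG-1a (adjusted p = 1.32e-05) and by 0.25 in MV4-11 (adjusted p = 0.000321). Its falls with 8CA at 24 h (-0.12 in each line) were lost in 7 and 8 of 11 alternatives. RPS4Y1, the Y-linked counterpart of RPS4X, was 1 of the paralogs that did not fall in MV4-11, with a change of 0.13 (adjusted p = 0.0378) with 8CA and 0.14 (adjusted p = 0.0387) with 8AA at 24 h. These calls were lost in 4 and 5 of 11 alternatives. Its call in KG-1a with 8AA (-0.15, adjusted p = 0.0452) was lost in 6 of 11 alternatives. RPS4Y2 was called in none of the KG-1a comparisons.

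**Figure D3:**
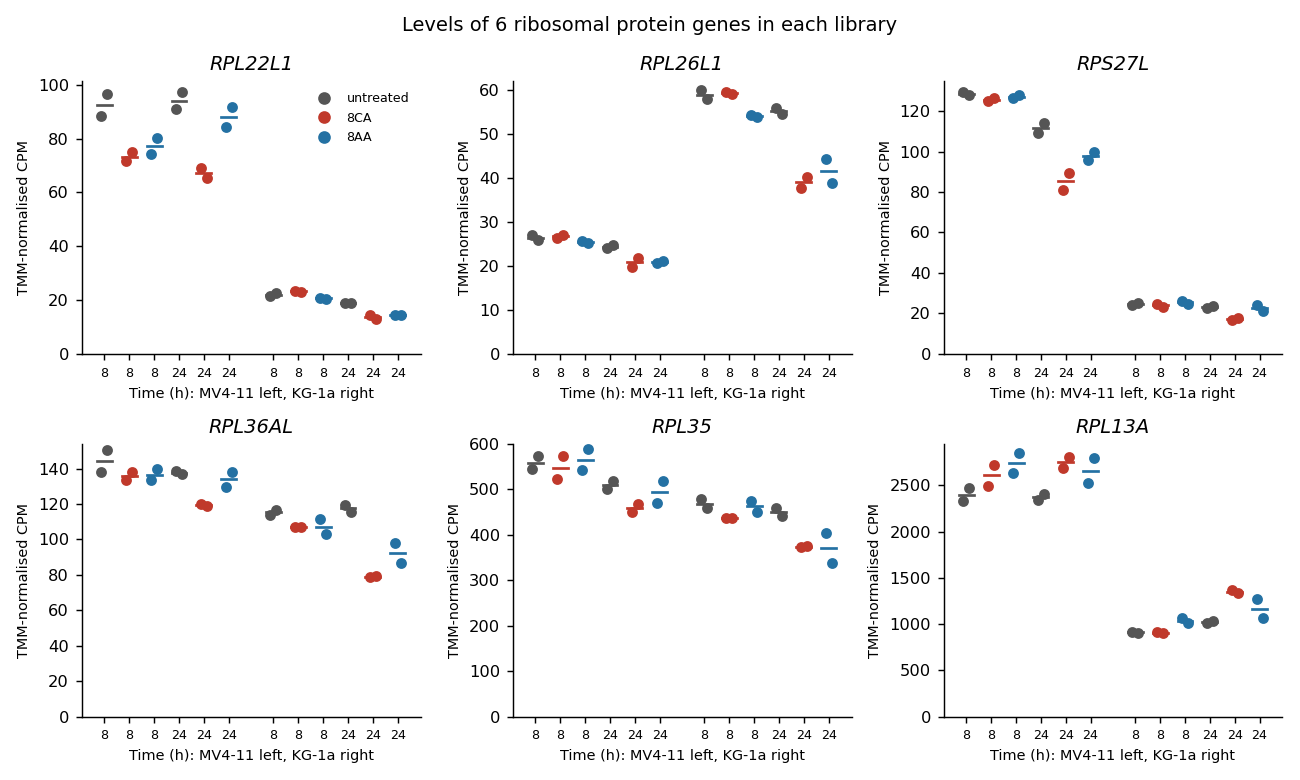
TMM-normalised CPM (y axis, from 0) of RPL22L1, RPL26L1, RPS27L, RPL36AL, RPL35 and RPL13A in each library (points) with the group mean (bar, n = 2), MV4-11 left and KG-1a right and untreated, 8CA and 8AA in turn at 8 h and 24 h. At 24 h the red 8CA points lie below the grey untreated points for the first 5 genes and above them for RPL13A, in both lines.

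The calls at 24 h were also counted by start sequence, for the 48 members with a C and pyrimidine run and the 22 without it. In KG-1a with 8CA for 24 h, 20 of the 48 rose and 3 fell, while of the 21 tested without the run 5 rose and 4 fell. Of all genes 23.4% rose and 24.0% fell there. In MV4-11 with 8CA for 24 h, 5 of 48 rose and 2 fell, while 0 of 20 rose and 4 fell. The shares of all genes were 21.2% and 22.7%. With 8AA at 24 h, 3 of 48 rose in each line, 0 fell in MV4-11 and 7 in KG-1a. Of those without the run 0 rose, 2 fell in MV4-11 and 7 in KG-1a. Over all genes 13.9% rose in MV4-11 and 25.4% in KG-1a, and 15.3% and 26.6% fell. Some of these counts, such as the 5 of 21 that rose in KG-1a with 8CA, lay near the share of all genes. The paralogs are unequally spread over the groups by start sequence (2 with and 6 without the run), and no difference between the groups was tested.

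The 2 analogs were compared directly at the same dose and time, in 4 comparisons with p-values adjusted over all genes in each. In MV4-11 the core genes showed no difference that passed the test. At 8 h, 8AA against 8CA gave 1 member lower (RPL7L1) and 0 higher, against 3.7% and 2.96% of all genes, with 1 member at an unadjusted p below 0.05 and 0 calls in DESeq2. At 24 h it gave 0 lower and 3 higher, against 9.48% and 11.7%, with 4 members at an unadjusted p below 0.05 and 2 calls, both higher, in DESeq2. Without RPS10, RPL17 and RPL36A, the 95% intervals of the difference reached from -0.23 to 0.32 over the 73 other core genes at 8 h and from -0.30 to 0.28 at 24 h, and 72 and 73 of these 73 intervals lay within 0.3 of 0. The 3 genes higher with 8AA at 24 h were RPL22L1 (0.39 ± 0.063, adjusted p = 0.000524), RPS27L (0.20 ± 0.052, adjusted p = 0.0145) and RPL36AL (0.17 ± 0.051, adjusted p = 0.0288). Leaving out 8CA A, 8CA B, 8AA A or 8AA B left 1, 2, 3 or 1 of the 3, and the call of RPL7L1 at 8 h was lost without any of the 4 libraries. For RPL26L1 the difference was 0.01, with an interval of -0.15 to 0.16.

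In KG-1a more members were called between the analogs, and so were more of all genes. At 8 h, 13 members (15.5%) were higher and 1 (1.19%) lower with 8AA than with 8CA, against 14.7% and 15.8% of all genes. The share of members called higher at 8 h was thus near that of all genes. RPL22 was at 249.4 and 251.4 CPM with 8CA and at 291.5 and 277.5 with 8AA (0.18 ± 0.044, adjusted p = 0.00523), and RPL7L1 at 196.9 and 191.6 with 8CA and at 150.9 and 152.9 with 8AA (-0.35 ± 0.042, adjusted p = 1.71e-05). The members called higher at 8 h were 2 without either 8CA library, 0 without 8AA replicate A and 4 without 8AA B. At 24 h the order turned: 40 members (47.6%) were lower and 2 (2.38%) higher with 8AA, against 21.7% and 20.3% of all genes. Of the 76 core genes, 75 had a value below 0. RPL4 was at 1794 and 1737 CPM with 8CA and at 1463 and 1253 with 8AA (-0.38 ± 0.057, adjusted p = 7.96e-05). RPL12 was at 740.9 and 741.2 with 8CA and at 606.0 and 540.0 with 8AA (-0.37 ± 0.049, adjusted p = 2.16e-05), and RPS6, the substrate of S6 kinase, at 1225 and 1200 and at 1026 and 890.4 (-0.34 ± 0.054, adjusted p = 0.000123). The groups did not overlap in any of these 3, and their calls held in all 11 alternatives. The members lower with 8AA at 24 h were 29 without 8AA replicate B (median -0.04), 73 without 8AA A (median -0.27), 22 without 8CA A and 29 without 8CA B. The 2 paralogs higher with 8AA were RPS27L (0.41 ± 0.083, adjusted p = 0.00103) and RPL36AL (0.23 ± 0.060, adjusted p = 0.0064). RPL26L1 (0.09, interval -0.05 to 0.24) and RPL22L1 (0.08, interval -0.10 to 0.25) did not pass.

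Whether the change at 24 h differed from that at 8 h was tested as the difference of the 2 changes. In MV4-11 with 8CA 1 member fell further and 0 rose, against 9.83% and 6.48% of all genes, with 3 members at an unadjusted p below 0.05 and the same counts in DESeq2. That member was RPS27L (-0.36 ± 0.072, adjusted p = 0.00364). With 8AA 0 were called in either direction, against 2.12% and 2.51%, with 3 at an unadjusted p below 0.05 and 0 in DESeq2. In KG-1a with 8CA 15 members had risen and 5 fallen between the times, against 11.2% and 12.7%. The 15 were core genes, among them RPL13A (0.41 ± 0.085, adjusted p = 0.00285), RPL28 (0.39 ± 0.092, adjusted p = 0.00646) and RPL12 (0.36 ± 0.069, adjusted p = 0.00137), and the 5 were the paralogs RPL39L, RPL22L1, RPL26L1, RPL36AL and RPS27L, by 0.40 to 0.58. The 15 became 6 without either untreated library of 24 h, 7 without 8CA 8 h A, 8 without 8CA 8 h B or 8CA 24 h A, 9 and 10 without untreated 8 h A and B, and 11 without 8CA 24 h B. In KG-1a with 8AA 1 member, RPL26L1, had fallen further (-0.28 ± 0.091, adjusted p = 0.0405) and 0 had risen, against 10.7% and 7.64%, with 12 members at an unadjusted p below 0.05 and 0 calls in DESeq2. This call was lost in 9 of 15 alternatives. Without replicate A of 8AA at 24 h 66 members were called lower, and without replicate B 2 lower and 3 higher.

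The change at 24 h was also compared between the lines, as MV4-11 minus KG-1a. With 8CA, 1 member was lower (RPL4, -0.27 ± 0.082, adjusted p = 0.0328) and 2 higher, against 5.44% and 5.76% of all genes. The higher members were RPL36AL (0.39 ± 0.081, adjusted p = 0.00242) and RPL26L1 (0.30 ± 0.093, adjusted p = 0.0419), both of which fell less in MV4-11. The call of RPL4 was lost without any of the 8 libraries, that of RPL26L1 in 10 of 15 alternatives, and that of RPL36AL in none. With 8AA, 0 were lower and 9 higher, against 8.51% and 13.8%, with 22 members at an unadjusted p below 0.05 and 5 calls, all higher, in DESeq2. RPL7L1 (0.45 ± 0.057, adjusted p = 2.9e-06), RPL36A (0.64 ± 0.14, adjusted p = 0.0015) and RPL36AL (0.33 ± 0.081, adjusted p = 0.00429) led. Without KG-1a 8AA replicate A 46 members were higher, and without replicate B 2 higher and 6 lower. Leaving out any other library left 4 to 11, with 4 without MV4-11 8AA B or KG-1a untreated B and 5 without either untreated library of MV4-11.

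Other genes of ribosome production were counted in the same way, from lists chosen with earlier results known. The list of 29 ribosome assembly factors covers genes for making ribosomal RNA and for processing and folding it into particles. Of these, 20 (8CA) and 27 (8AA) of 29 fell in MV4-11 at 8 h, and 19 and 21 at 24 h. Of all genes 5.77% and 15.6% fell in MV4-11 at 8 h and 22.7% and 15.3% at 24 h. In KG-1a the counts were 0 and 28 at 8 h and 25 and 28 at 24 h. The shares of all genes were 0.181% and 18.0% at 8 h and 24.0% and 26.6% at 24 h. The median of the assembly factors at 24 h was -0.17 and -0.20 in MV4-11 and -0.35 and -0.83 in KG-1a. UTP20 fell by 0.32 (8CA) and 0.35 (8AA) in MV4-11 and by 0.57 and 1.22 in KG-1a, and NOP16 by 0.25 and 0.17 and by 0.64 and 1.04, while UBTF, a factor for transcription of ribosomal RNA, was called in none of the 4. NOB1 rose with 8CA, by 0.41 in MV4-11 and 0.34 in KG-1a, and fell by 0.35 with 8AA in KG-1a. Of 6 chaperones dedicated to single ribosomal proteins, 2 and 2 fell in MV4-11 and 3 and 5 in KG-1a at 24 h, against the same shares of all genes. GRWD1, the carrier of RPL3, and BCCIP, the carrier of RPL23, fell in all 4 comparisons at 24 h. PDCD2 fell only in KG-1a with 8AA, by 0.40, and TSR2 was called in none of the 4.

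Of 76 mitochondrial ribosomal protein genes tested, 47 (8CA) and 35 (8AA) fell in MV4-11 at 24 h, with medians of -0.25 and -0.18, and 48 and 53 in KG-1a, with medians of -0.27 and -0.33. In the same order 1, 0, 2 and 3 rose. Of all genes 22.7%, 15.3%, 24.0% and 26.6% fell and 21.2%, 13.9%, 23.4% and 25.4% rose, shares that apply to the next lists too. The other 22 TOP transcripts, mostly translation factors, included 15 that rose and 1 that fell in KG-1a with 8CA at 24 h (median 0.22), and 5 and 5 with 8AA (median -0.05). The counts with 8AA there lay near the shares of all genes. In MV4-11 10 rose and 1 fell with 8CA and 1 and 1 with 8AA (medians 0.11 and 0.05). GAS5, a non-coding snoRNA host that carries a TOP start, rose by 0.53 and 0.29 in MV4-11 and by 0.84 with 8CA in KG-1a (adjusted p = 3.2e-09), and NPM1, the nucleolar chaperone, fell in all 4, by 0.18 to 0.65. FAU was called in none of the 8. Of 11 regulators of TOP mRNA translation 3 and 4 fell in MV4-11 and 5 and 6 in KG-1a at 24 h, with 1, 1, 2 and 1 higher. The 3 of 11 in MV4-11 with 8CA lay near the 22.7% of all genes. RPS6KB1 fell in all 4, by 0.23 to 0.32, and RPS6KB2 by 0.25 to 0.49, while the RNA-binding protein TIA1 rose with 8AA in both lines, by 0.25 and 0.52. In the MDM2 arm, MDM4 rose by 0.88 (8CA) and 0.63 (8AA) in KG-1a and by 0.29 with 8CA in MV4-11, and CDKN1A fell by 0.40 in MV4-11 and by 0.72 in KG-1a with 8AA, whereas MDM2 was called at 24 h only in KG-1a with 8AA (-0.21, adjusted p = 0.0259). Library size as the only scaling moved the median of all genes by up to 0.0945, so the sign of list medians below that size was not settled. These lists and the members share the same libraries, and no difference between lists was tested.

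**Figure D4:**
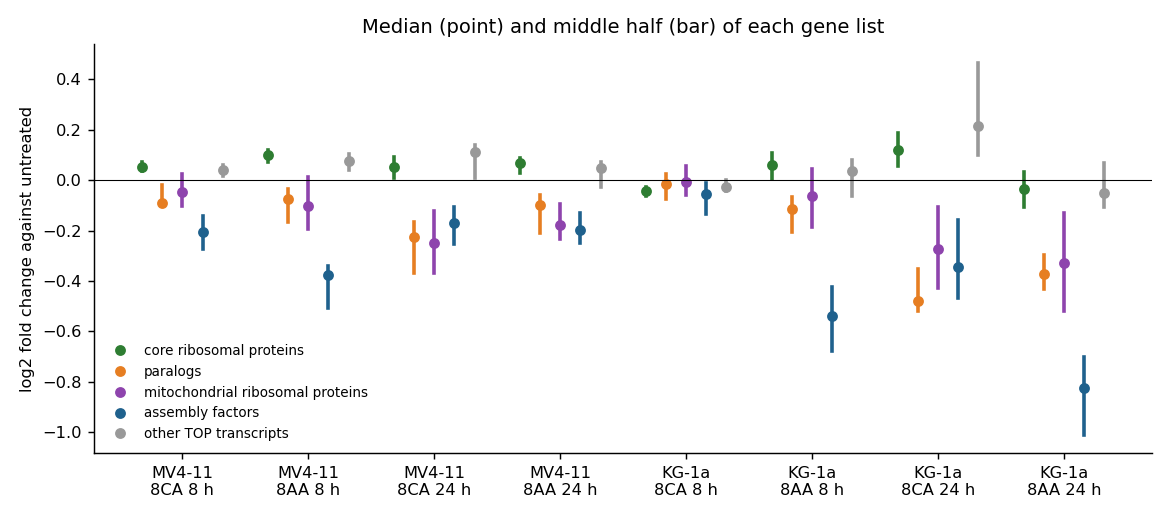
Median (point) and interquartile range (bar) of the log2 fold change against untreated (y axis) of core ribosomal protein genes, paralogs, mitochondrial ribosomal protein genes, assembly factors and other TOP transcripts in the 8 comparisons (x axis). Assembly factors reach a median of -0.83 in KG-1a with 8AA for 24 h, where the core genes have a median of -0.03.

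In untreated cells most members were more abundant in MV4-11. Over the 4 untreated libraries of each line, 74 of 84 members were higher and 4 lower in MV4-11, against 43.1% and 44.3% of all genes, and the median difference was 0.64 on the log2 scale. With library size as the only scaling 9 were lower. The core median was 754 CPM per kb of exon in MV4-11 and 473 in KG-1a. By this measure per length, RPL8 (2851 ± 75, SD, n = 4) and RPL7 (2744 ± 89) had the highest levels in MV4-11 and RPL7 (1921 ± 20) and RPLP0 (1663 ± 39) in KG-1a. RPL8 and RPL7 in MV4-11 lay within 2 of their SDs of each other, while RPL7 and RPLP0 in KG-1a did not. The lowest core genes with ample counts were RPL38 and RPL28, at 139 ± 4.2 and 173 ± 4.5 CPM per kb in MV4-11 and 95.4 ± 2.4 and 105 ± 3.0 in KG-1a. The paralogs other than RPS4Y1 and RPL36AL lay below, at 78.5 CPM per kb or less in either line. RPS10, RPL17 and RPL36A were at 1.81, 3.95 and 5.08 in MV4-11.

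A few genes departed far from this median. RPL26 was at 874.1 to 955.0 CPM in MV4-11 and 218.2 to 235.6 in KG-1a (2.0 ± 0.048, adjusted p = 5.47e-22), and RPS14 at 819.9 to 877.8 and 216.9 to 230.7 (1.90 ± 0.043, adjusted p = 1.63e-22). Among paralogs, RPS27L was at 112.3 to 132.7 CPM in MV4-11 and 21.53 to 24.46 in KG-1a (2.42 ± 0.045, adjusted p = 3.28e-24), and RPL22L1 at 90.66 to 99.83 and 18.0 to 22.01 (2.28 ± 0.050, adjusted p = 7.16e-23). RPL26L1 went the other way, at 24.80 to 27.73 CPM in MV4-11 and 52.34 to 58.15 in KG-1a (-1.08 ± 0.046, adjusted p = 6.12e-17). RPL26 and its paralog were thus high in opposite lines, with ranges that did not overlap. RPS20 (-0.24 ± 0.040, adjusted p = 4.29e-06) and RPS25 (-0.14 ± 0.039, adjusted p = 0.00186) were the core genes higher in KG-1a, and RPS3 did not differ beyond its spread (0.00 ± 0.046, adjusted p = 0.976). RPS4Y2 had 0 counts in all 4 untreated MV4-11 libraries and 12 to 21 in KG-1a, so no fold is given for it.

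**Figure D5:**
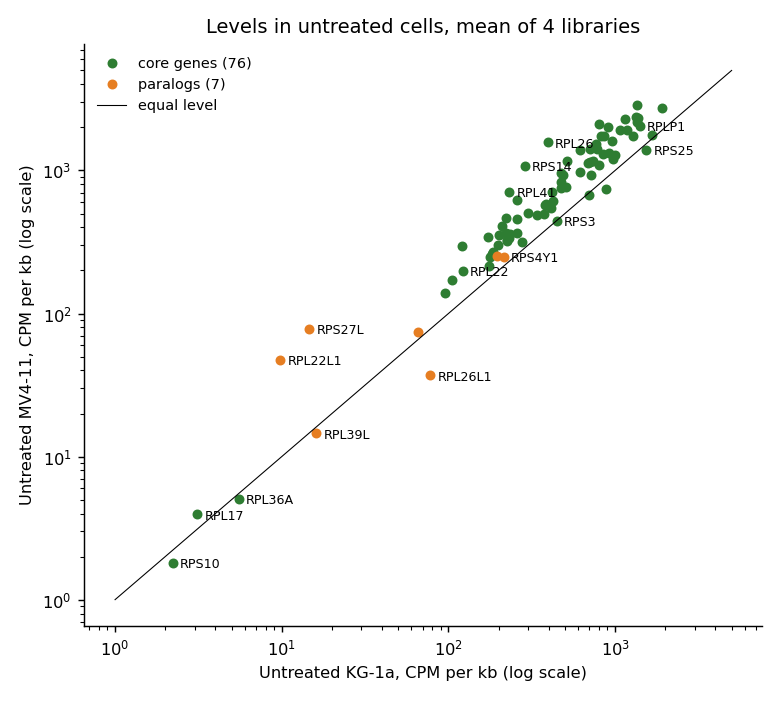
Mean level in untreated MV4-11 (y axis) against untreated KG-1a (x axis), each in CPM per kb of exon on a log scale over 4 libraries, for the 76 core genes (green) and 7 paralogs (orange), with the line of equal level. Most genes lie above the line, RPL26, RPS14, RPS27L and RPL22L1 farthest, and RPL26L1 lies below it.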

How the data were processed

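The authors deposited raw counts per gene for the 24 libraries, with symbol, position and exon length in kb (the length is the authors' value). The submitters' processing notes name Trimmomatic, STAR 2.6.0, HTSeq 0.11.1, edgeR, hg19 and hg38 without roles, and how strand and ambiguous reads were handled is not given in the sources used here. The counts were not normalised. Here genes were filtered with filterByExpr (minimum count 10), scaled by TMM and tested with edgeR 4.0.16 (quasi-likelihood test, R 4.3.3) and Benjamini-Hochberg adjustment, in 1 fit per cell line (12800 genes in MV4-11, 12711 in KG-1a) and 1 fit over both lines (14055 genes) for differences between lines, without covariates. Levels are TMM-scaled CPM of the line's own fit, and for untreated levels and markers of the joint scaling. Intervals are 95% confidence intervals from the fit.

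Named genes were fixed by rule: 11 members with special roles, all paralogs, and in the comparisons with untreated the 3 other members with the lowest and the 3 with the highest change at 24 h and 1 of each at 8 h, plus those called one way in all 4 at 24 h. The rule and the lists were chosen with earlier results of these data known, and genes to print as sequences were chosen after their values were seen. Genes reported beyond the rule (RPL26, RPL7, RPL8, RPL38, RPS3, RPS20 and RPS25 in untreated cells, and counts of other members) were also chosen after their values were seen. Alternatives were RLE, library size, upper quartile, TMM without the members, no filter, DESeq2 1.42.0, a replicate block and each library left out. Whether A and B pair across groups was checked by the correlation of their deviations, which ran from -0.25 to 0.422 over pairs of groups. In MV4-11 it was 0.072 to 0.422 between groups other than untreated at 24 h, and -0.25 to 0.004 in pairs with that group. In KG-1a it was -0.197 to 0.357. The fits were tested on simulated counts, drawn without shifts shared by groups of genes. That test therefore does not cover shifts such as that between A and B in KG-1a with 8AA at 24 h. Its limit on recovery was set on better-covered genes after genes with low counts had failed it. Promoter and annotation data came from RefSeq (GRCh38.p14) and GENCODE 29, and no coordinates of the deposited table are given because its build is not stated.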

Additional observations from a re-analysis of the deposited data

Results flagged for a closer look

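A difference of the change between times or between lines that passed edgeR's quasi-likelihood test (adjusted p below 0.05) was found for 23 combinations of named gene and comparison. In KG-1a with 8CA the change at 24 h lay above that at 8 h for RPL13A (0.407), RPL28 (0.387), RPL12 (0.364), RPL4 (0.352), RPS27 (0.301), RPS6 (0.28) and RPS18 (0.26), all on the log2 scale. It lay below for RPL39L (-0.58), RPL22L1 (-0.533), RPL26L1 (-0.508), RPL36AL (-0.47) and RPS27L (-0.399). In KG-1a with 8AA it lay below for RPL26L1 (-0.283), and in MV4-11 with 8CA for RPS27L (-0.355). Between the lines, the 8CA change at 24 h was lower in MV4-11 than in KG-1a for RPL4 (-0.27) and higher for RPL36AL (0.388) and RPL26L1 (0.295). The 8AA change was higher in MV4-11 for RPL36A (0.644), RPL7L1 (0.452), RPL36AL (0.327), RPS4Y1 (0.31), RPL22L1 (0.303) and RPL12 (0.236). Of these, RPS4Y1 and RPL36AL lost the call in 1 of 15 alternatives, RPL22L1 and RPL12 in 11 of 15, and RPL7L1 and RPL36A in none. The 8AA differences rest on the KG-1a 8AA 24 h libraries, of which A lay above B for all 76 core genes.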

How the results depend on the processing

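Among counts, medians and shares recomputed under alternatives, 429 were classed as unmoved and 141 as moved, by a tolerance not stated here. That tolerance was wide, so unmoved values were not always close to the reported ones. In KG-1a with 8CA at 24 h, members called higher went from 30 to 21 without 8CA replicate B, which was classed as unmoved. For 8AA against 8CA there, a change from 40 to 29 members called lower without 8AA replicate B was also classed as unmoved. Among values for a named gene in a comparison, 6970 kept direction and side of the threshold, 250 lost the call, 263 gained it and 5 turned. The cause of these shifts was not tested.

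With library size as the only scaling, members called higher were 1, 47, 32 and 27 in MV4-11 (8CA 8 h, 8AA 8 h, 8CA 24 h, 8AA 24 h), 16 in KG-1a with 8AA at 8 h and 17 at 24 h, with 8 lower. For 8AA against 8CA in KG-1a it gave 24 higher at 8 h and 26 lower at 24 h, for 24 h against 8 h 24 higher with 8CA and 0 lower with 8AA, between lines with 8AA 5 higher, and 9 lower in untreated cells. The medians at 24 h with 8CA became 0.095 in MV4-11 and 0.133 in KG-1a. With the upper quartile, members called higher were 45, 18 and 12 in MV4-11 (8AA 8 h, 8CA 24 h, 8AA 24 h), and 10, with 8 lower, in KG-1a with 8AA at 24 h. It gave 0 lower for 8AA against 8CA in MV4-11 at 8 h, 27 higher (8CA) and 0 lower (8AA) for 24 h against 8 h in KG-1a, 1 and 4 higher between lines, and medians of 0.0826 and 0.143. RLE gave 5 higher between lines with 8AA.

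Without the filter, 2 members were lower and 1 higher in MV4-11 with 8CA at 8 h, 37, 22 and 12 higher in the other MV4-11 comparisons, 2 lower and 14 higher in KG-1a at 8 h with 8CA and 8AA, and 0 lower for 8AA against 8CA in MV4-11 at 8 h. In KG-1a it gave 32 higher for 8AA against 8CA at 8 h, 30 higher (8CA) and 8 lower (8AA) for 24 h against 8 h, and between lines with 8CA 7 lower and 1 higher. DESeq2 gave 4 lower in MV4-11 with 8CA at 24 h, 0 for 8AA against 8CA at 8 h, 3 lower (8CA) and 0 (8AA) for 24 h against 8 h in KG-1a, and 1 and 5 higher between lines.

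The letters A and B are not known to pair libraries, and deviations of same-letter libraries correlated by -0.25 to 0.422. With a replicate block, members called higher were 4, 50, 25 and 21 in MV4-11 (order as above) and 8 in KG-1a with 8AA at 8 h. The block gave 5 higher for 8AA against 8CA in MV4-11 at 24 h, 3 lower for 24 h against 8 h with 8CA there, 25 higher (8CA) and 5 lower (8AA) in KG-1a, and 1 higher between lines with 8CA.

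Leaving out 1 library at a time, members called higher ranged from 0 to 1, 0 to 23, 0 to 3 and 0 to 2 in MV4-11 (order as above) and members called lower from 1 to 3 (8AA 8 h), 4 to 5 (8CA 24 h) and 0 to 3 (8AA 24 h). In KG-1a they ranged from 0 to 1 lower (8CA 8 h), 0 to 3 higher (8AA 8 h), 13 to 21 higher (8CA 24 h), and 10 to 59 lower and 0 to 27 higher (8AA 24 h). For 8AA against 8CA the ranges were 0 to 0 lower (MV4-11 8 h), 1 to 3 higher (MV4-11 24 h), 0 to 4 higher (KG-1a 8 h), and 22 to 73 lower and 1 to 6 higher (KG-1a 24 h). For 24 h against 8 h in KG-1a they were 3 to 5 lower and 6 to 11 higher (8CA) and 0 to 66 lower and 0 to 3 higher (8AA). Between lines they were 0 to 0 lower and 1 to 2 higher (8CA) and 0 to 6 lower and 2 to 46 higher (8AA). The median change ranged from 0.00103 to 0.0942 in MV4-11 with 8AA at 24 h and from -0.0525 to -0.0312 in KG-1a with 8CA at 8 h. All 5 turns came from KG-1a 8AA 24 h: against untreated, RPLP0 was at -0.152 without replicate A and 0.101 without B, and RPSA at -0.0899 and 0.141. Against 8CA, RPLP1 was at -0.146 and 0.107 and RPL35 at -0.149 and 0.112, and for 24 h against 8 h RPL13A was at -0.129 and 0.123. A lone library left in a group was assumed to vary like those of the other groups.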
